A study of Mus musculus with 60 samples.

Results

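The cells sorted as dye-retaining (DiD+) and dye-negative (DiD-) tumor cells that carried mitotic transcripts are described here. A cell was chosen when at least 3 of the 5 genes Mki67, Top2a, Cdk1, Birc5 and Ccnb2 had at least 10 counts in it. The rule chose 44 of the 60 sequenced cells, 19 of the 32 DiD+ cells and 25 of the 28 DiD- cells. They are called cycling DiD+ and cycling DiD- cells below, and the 13 DiD+ cells that were not chosen are called other DiD+ cells. The name cycling rests on transcripts alone, and no cell was seen to divide. The comparison asks whether DiD+ cells with mitotic transcripts resembled the dividing DiD- cells or still carried the genes that the study reported for dormant cells.

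The tumor cells were of the mouse mammary tumor line PyMT-Bo1, which is of C57BL6 background. They carried Luc2-EGFP, H2B-mApple and Thy1.1 from lentiviral vectors of the FUGW type, in which a ubiquitin C promoter drives the transgene, and were stained with the membrane dye Vybrant DiD. The cells were given by intracardiac injection to wild-type C57BL6 female mice 8 to 10 weeks old. Tumor cells were isolated 11 days later from femurs and tibias of 5 mice, and whether the bones were pooled is not stated. Cells were enriched with Thy1.1 beads, CD45-stained hematopoietic cells and DAPI-stained dead cells were gated out, and cells with high DiD (DiD+) or low DiD (DiD-) were sorted 1 per well for full-length single-cell RNA sequencing. All groups share the line, the vectors, the staining and the hosts. No label names a mouse for a cell, so each DiD group is 1 sample, no test between the groups was run, and no difference below has a replicate check.

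A membrane dye is split between daughter cells at each division, so a cell that keeps the dye has divided little since it was stained. Entry into S phase follows release of E2F factors from the pocket proteins by cyclin-dependent kinases. CDK1 with B-type cyclins then drives mitosis, in which TOP2A untangles chromosomes and survivin, the product of Birc5, serves the chromosomal passenger complex, and the Ki-67 protein of Mki67 coats mitotic chromosomes. Most mitotic genes are transcribed together late in the cycle through CCAAT boxes bound by NF-Y and the cell cycle genes homology region (CHR) bound by MuvB complexes.

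The 200 bases upstream of the RefSeq start of the 5 selecting genes are printed because these genes define the cells described. They are read 5′ to 3′ on the strand of the gene (GRCm38.p6) and lie at chr7:135716380-135716579 (minus strand) for Mki67, chr11:99024190-99024389 (minus) for Top2a, chr10:69352913-69353112 (minus) for Cdk1, chr11:117849037-117849236 (plus) for Birc5 and chr9:70421555-70421754 (minus) for Ccnb2. Capitals mark the CHR letters TTTGAA or TTCAAA and the CCAAT box letters CCAAT or ATTGG, which do not overlap each other here.
Mki67: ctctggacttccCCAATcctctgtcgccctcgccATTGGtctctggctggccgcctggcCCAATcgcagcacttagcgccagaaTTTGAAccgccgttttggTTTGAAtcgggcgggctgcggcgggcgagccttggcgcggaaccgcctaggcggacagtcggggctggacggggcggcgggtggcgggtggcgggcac
Top2a: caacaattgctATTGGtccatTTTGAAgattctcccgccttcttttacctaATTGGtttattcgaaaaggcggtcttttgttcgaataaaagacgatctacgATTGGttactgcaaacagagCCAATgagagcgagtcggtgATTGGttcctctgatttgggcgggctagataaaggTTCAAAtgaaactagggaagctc
Cdk1: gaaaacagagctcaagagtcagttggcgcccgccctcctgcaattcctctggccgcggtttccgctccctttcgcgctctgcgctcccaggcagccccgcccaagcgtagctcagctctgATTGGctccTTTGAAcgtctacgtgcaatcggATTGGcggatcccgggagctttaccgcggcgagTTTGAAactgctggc
Birc5: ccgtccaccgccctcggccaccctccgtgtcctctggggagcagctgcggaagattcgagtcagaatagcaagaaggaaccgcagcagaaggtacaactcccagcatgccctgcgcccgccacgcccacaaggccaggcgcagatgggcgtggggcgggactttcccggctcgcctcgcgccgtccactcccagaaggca
Ccnb2: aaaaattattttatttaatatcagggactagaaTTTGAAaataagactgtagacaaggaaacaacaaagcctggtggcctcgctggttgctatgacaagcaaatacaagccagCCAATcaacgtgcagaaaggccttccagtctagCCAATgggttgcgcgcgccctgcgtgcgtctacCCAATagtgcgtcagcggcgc
CHR letters on either strand were in 4 of these 5 windows, and in 12.5% of all 32851 promoter windows of this length. CCAAT letters were in 4 of 5, and in 29.3% of all windows. The Birc5 window held neither. Of the genes that act in the same phases but were not used for choosing, CCAAT letters were in 7 of 8 windows of G2/M regulators. They were in 14 of 21 windows of spindle and checkpoint genes and 9 of 12 of mitotic exit and cytokinesis genes. For replication licensing genes it was 11 of 13 and for DNA synthesis genes 14 of 29, against 4 of 16 windows of the dormancy genes. CHR letters were in 5 of 12 windows of mitotic exit and cytokinesis genes and in 5 of 16 windows of the dormancy genes. The other lists had a lower share than the dormancy genes. CHR letters were in 2 of 8 windows of G2/M regulators and 4 of 21 of spindle and checkpoint genes. For licensing genes it was 2 of 13 and for DNA synthesis genes 1 of 29. A match describes these letters in this window and is not a shown binding site.

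The 5 selecting genes chose the cells, so their levels are given as a description. Levels are in counts scaled to the mouse gene total of a group or cell (CPM, counts per 1000000), and are compared between groups and not between genes. Mki67 was at 0, 61.0 and 762 CPM in the lowest, median and highest cycling DiD+ cell and at 0, 51.2 and 438 CPM in the cycling DiD- cells. Top2a was at 0, 62.8 and 957 CPM in cycling DiD+ cells and at 0, 403 and 846 CPM in cycling DiD- cells. The median DiD- cell thus lay above the median DiD+ cell for Top2a, while the highest cell of both groups was a DiD+ cell for each of the 5 genes. Cdk1 was at 0, 170 and 1466 CPM in cycling DiD+ cells and at 32.5, 566 and 1450 CPM in cycling DiD- cells. Birc5 was at 0, 333 and 1112 CPM against 0, 362 and 992 CPM. Ccnb2 was at 0, 239 and 1801 CPM against 0, 283 and 1334 CPM. Over summed counts the log2 ratio of cycling DiD+ over cycling DiD- cells, with a pseudocount of 1 CPM, was 0.36 for Ccnb2, 0.00 for Mki67 (-0.41 without cell 63), -0.20 for Birc5, -0.41 for Cdk1 and -0.73 for Top2a.

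**Figure D1:**
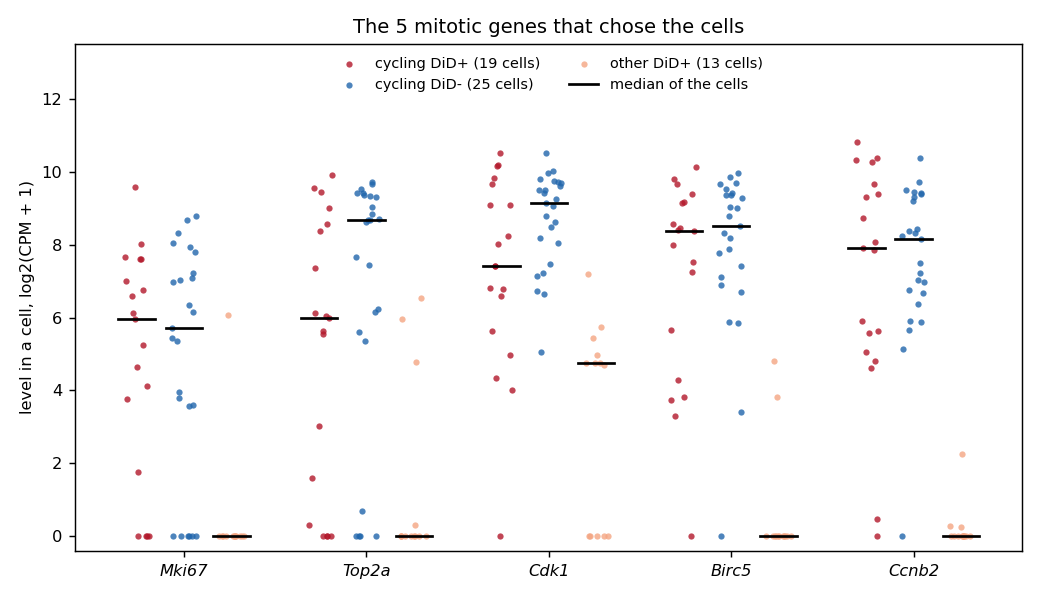
Level of each of the 5 selecting genes in single cells, as log2(CPM + 1), for 19 cycling DiD+, 25 cycling DiD- and 13 other DiD+ cells, with 1 point per cell and a black bar at the median. The cycling groups overlap for all 5 genes, the median Top2a level is lower in cycling DiD+ cells (62.8 CPM) than in cycling DiD- cells (403 CPM), and most other DiD+ cells are at 0 for every gene except Cdk1.

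The chosen cells differed in how many selecting genes they held. All 5 were present in 10 of the 19 cycling DiD+ cells and in 16 of the 25 cycling DiD- cells. The cells just inside the rule held 3 of the genes and were DiD+ cells 17, 23, 30 and 31 and DiD- cells 45, 66, 74 and 92, named by the number in their labels. Summed over the 5 genes, cell 23 had 47.6 CPM, cell 17 had 79.8, cell 30 had 128 and cell 31 had 263 CPM, while DiD- cell 74, the lowest of its group, had 237 CPM. The cells just outside held 2 of the genes and were DiD+ cells 21, 36, 37, 76 and 83 and DiD- cells 85 and 89. Among them, DiD+ cell 36 had 208 CPM, more than 4 of the chosen DiD+ cells. The range of DiD+ cells therefore reached lower than that of DiD- cells, and results are also given for the 10 DiD+ and 16 DiD- cells with all 5 genes. The share of cells chosen was 59.4% of DiD+ cells (exact binomial 95% interval 40.6 to 76.3) and 89.3% of DiD- cells (71.8 to 97.7). These intervals count cells of 1 sorted sample per group, so they cover counting error and not the variation between mice. The Poisson intervals of summed counts below also cover counting error only, because reads without molecular identifiers are not independent molecules.

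Counts on mouse genes ran from 2276789 to 7794219 in cycling DiD+ cells (median 4806432) and from 2624405 to 6199108 in cycling DiD- cells (median 4536531), with medians of 8422 and 8530 genes detected. Mouse counts per spike-in count, which rise with the RNA content of the well, had medians of 56.0 (31.1 to 178) in cycling DiD+ cells, 70.95 (38.5 to 178) in cycling DiD- cells and 36.8 (14.3 to 74.1) in other DiD+ cells. No pair of cells had identical counts. The Luc2 transgene of the tumor line had 65 to 1401 counts in cycling DiD- cells and 62 to 943 counts in 17 of the 19 cycling DiD+ cells. It had 0 counts in DiD+ cell 30, which had 0 counts of mApple, eGFP and Pymt as well and so carried no transcript of a tumor transgene, and which held 11 of 13 macrophage or monocyte markers and 7 of 7 erythroid markers at 10 counts or more. It had 1 count in DiD+ cell 35, which had 334 counts of mApple. The gate on CD45 should have removed hematopoietic cells, yet 6 chosen cells held at least 7 macrophage markers or at least 4 erythroid markers. They were DiD+ cells 24, 30 and 88 with 13, 11 and 12 macrophage markers, and DiD- cells 84 (13 macrophage and 5 erythroid markers), 86 (6 erythroid) and 44 (4 erythroid). Ptprc, which encodes CD45, had 19 counts in cell 84, 6 in cell 35 and at most 2 in every other chosen cell. Of 13 macrophage markers 12 were at least 2-fold higher in the sum of cycling DiD+ cells. Their median log2 ratio was 3.47 with all cells and 1.42 without cell 24, and the summed level per cell ran from 0 to 20071 CPM against 0 to 2037 CPM. All 7 erythroid markers were at least 2-fold higher in cycling DiD+ cells (median 2.54), and without cell 30 the median was -6.88. Leaving out these 6 cells keeps 16 DiD+ and 22 DiD- cells, and list medians without them are given where the lists are described.

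Mitotic genes other than the 5 used for choosing were at similar summed levels in cycling DiD+ and cycling DiD- cells, while the median cell was lower among the DiD+ cells. In summed counts, genes of the spindle, kinetochore and checkpoint had a median log2 ratio of -0.01, with 11 of 22 genes higher and 11 lower and 0 past 2-fold in either direction. Over the 12266 genes that reached 1 CPM in either group the median was 0.03, and 53.0% were higher in cycling DiD+ cells. Of all these genes 10.5% were 2-fold or more higher in cycling DiD+ cells and 6.24% were 2-fold or more lower. The cells were chosen for mitotic genes, which carry these genes with them, and the same genes had a median log2 ratio of -5.51 in other DiD+ over cycling DiD- cells. Per cell, the summed level of spindle genes was 31.5, 1494 and 8763 CPM in the lowest, median and highest cycling DiD+ cell and 98.3, 2089 and 7485 CPM in cycling DiD- cells, and that of G2/M regulators had medians of 1171 and 1952 CPM. The ranges overlapped, and with the median over cells of each gene in place of summed counts the spindle list was at -1.33. Cenpf, a kinetochore protein of G2 and mitosis, was at 167 CPM in cycling DiD+ and 112 CPM in cycling DiD- cells (log2 ratio 0.57), with 0 counts in all other DiD+ cells. Ckap2, which stabilizes spindle microtubules, was at 154 and 103 CPM (0.57). The lowest ratios belonged to the checkpoint kinase Bub1 at 80.1 and 127 CPM (-0.65) and Spc25, a subunit of the kinetochore complex NDC80, at 54.7 and 83.2 CPM (-0.60). Cenpf was carried by few cells, since cell 67 gave 31.8% of its DiD+ counts and the ratio without that cell was 0.11.

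Regulators of the G2/M transition had a median of -0.22, with 2 of 14 genes higher and 12 lower. The higher ones were Ccnb1, the cyclin partner of CDK1, at 664 and 535 CPM (0.31) and the CDK1-activating phosphatase Cdc25c at 81.4 and 70.2 CPM (0.21, and -0.38 without cell 67). Mybl2, the B-Myb factor that joins MuvB on late cell cycle promoters, was at 28.8 CPM in cycling DiD+ and 63.1 CPM in cycling DiD- cells (-1.11), and the mitotic kinase Aurkb was at 167 and 253 CPM (-0.59). Genes of mitotic exit and cytokinesis had a median of -0.09, with 4 of 11 higher and 0 past 2-fold. Cdc20, which activates the anaphase-promoting complex, was at 493 and 335 CPM (0.56) and the cytokinesis kinesin Kif20a at 505 and 371 CPM (0.44), while the midzone protein Prc1 was at 383 and 496 CPM (-0.37) and the centralspindlin subunit Racgap1 at 415 and 527 CPM (-0.34). Of 8 genes of chromosome condensation and chromatin 7 were lower (median -0.23), among them the condensin subunits Ncapg at 74.6 and 130 CPM (-0.79) and Smc2 at 109 and 157 CPM (-0.52). Ncapd2, another condensin subunit, was at 101 and 81.4 CPM (0.30), and the chromatin protein Hmgb2 at 422 and 453 CPM (-0.10).

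Genes of replication were mostly lower in the sum of cycling DiD+ cells, by less than 2-fold for most genes. Genes of licensing and origin firing had a median log2 ratio of -0.39, with 15 of 17 lower. Of the 17, 2 were 2-fold or more lower, against 6.24% of all genes. Mcm3, a subunit of the replicative helicase, was at 0, 56.2 and 615 CPM in the lowest, median and highest cycling DiD+ cell and at 37.4, 202 and 851 CPM in cycling DiD- cells, and had at least 10 counts in 12 of 19 and in 25 of 25 cells. The groups overlapped, with 5 DiD- cells above every DiD+ cell, and over summed counts Mcm3 was at 132 and 335 CPM (-1.34, and -1.002 among cells with all 5 genes). Mcm10, which helps to activate the helicase, was at 10.3 and 24.2 CPM (-1.16). The origin-binding Orc1 was at 16.5 and 13.4 CPM (0.28) and the helicase cofactor Gins1 at 30.7 and 27.2 CPM (0.17). Of 30 DNA synthesis genes 24 were lower (median -0.26) and 0 were past 2-fold. Uhrf1, which maintains DNA methylation behind the fork, was at 73.1 and 140 CPM (-0.92) and the polymerase subunit Pola1 at 59.5 and 108 CPM (-0.85), while the histone chaperone subunit Chaf1b was at 131 and 109 CPM (0.26) and the ribonucleotide reductase subunit Rrm2 at 497 and 429 CPM (0.21). Per cell, the summed level of licensing and DNA synthesis genes had a median of 3632 CPM in cycling DiD+ cells (1356 to 16807) and a higher median of 6388 CPM in cycling DiD- cells (1887 to 17015), and the ranges overlapped over nearly their whole length. Among the 10 DiD+ and 16 DiD- cells with all 5 selecting genes the licensing median was 0.04, with 12 of 17 genes higher, the DNA synthesis median was 0.08 and the spindle median was 0.12. Among the 13 DiD+ and 25 DiD- cells in the range of selecting-gene levels that both groups share (237 to 4212 CPM), the licensing median was also 0.04. It stayed below 0 in the other subsets, at -0.42 (15 of 17 lower) without the cells with macrophage or erythroid markers, at -0.24 (12 lower) with 100 counts required of each selecting gene and at -0.29 (15 lower) without the DiD+ cells with under 50 counts of Luc2. Without the cells with macrophage or erythroid markers the spindle median was 0.12, that of G2/M regulators -0.03 and that of DNA synthesis genes -0.19.

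The G1 machinery differed gene by gene. Of 10 measured G1 cyclins, kinases and E2F factors 3 were higher and 7 lower (median -0.06). E2f1, an activator of S phase genes, was at 32.2 and 83.6 CPM (-1.35), and Cdk4, a kinase that phosphorylates pocket proteins, was at 589 and 841 CPM (-0.51), with at least 10 counts in every cycling cell. Ccne1, a cyclin of the G1/S transition, was at 38.6 and 20.01 CPM (0.91) and Cdk6, the relative of Cdk4, at 48.6 and 30.6 CPM (0.65). Of the CDK inhibitors and pocket proteins 6 of 7 were higher, none by 2-fold. Their median of 0.03 was also the median of all genes, and it was -0.22 with scaling to the spike-ins. The inhibitor Cdkn1a, which encodes p21, was at 43.1, 357 and 1572 CPM in the lowest, median and highest cycling DiD+ cell and at 66.1, 250 and 1426 CPM in cycling DiD- cells. Every cycling cell of both groups held it, the ranges overlapped, and the summed levels of 567 and 367 CPM gave a log2 ratio of 0.63. Rb1 was at 29.6 and 20.5 CPM (0.51), the inhibitor Cdkn2d at 70.7 and 69.9 CPM (0.01), and the pocket protein gene Rbl1 at 14.1 and 36.9 CPM (-1.33).

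**Figure D2:**
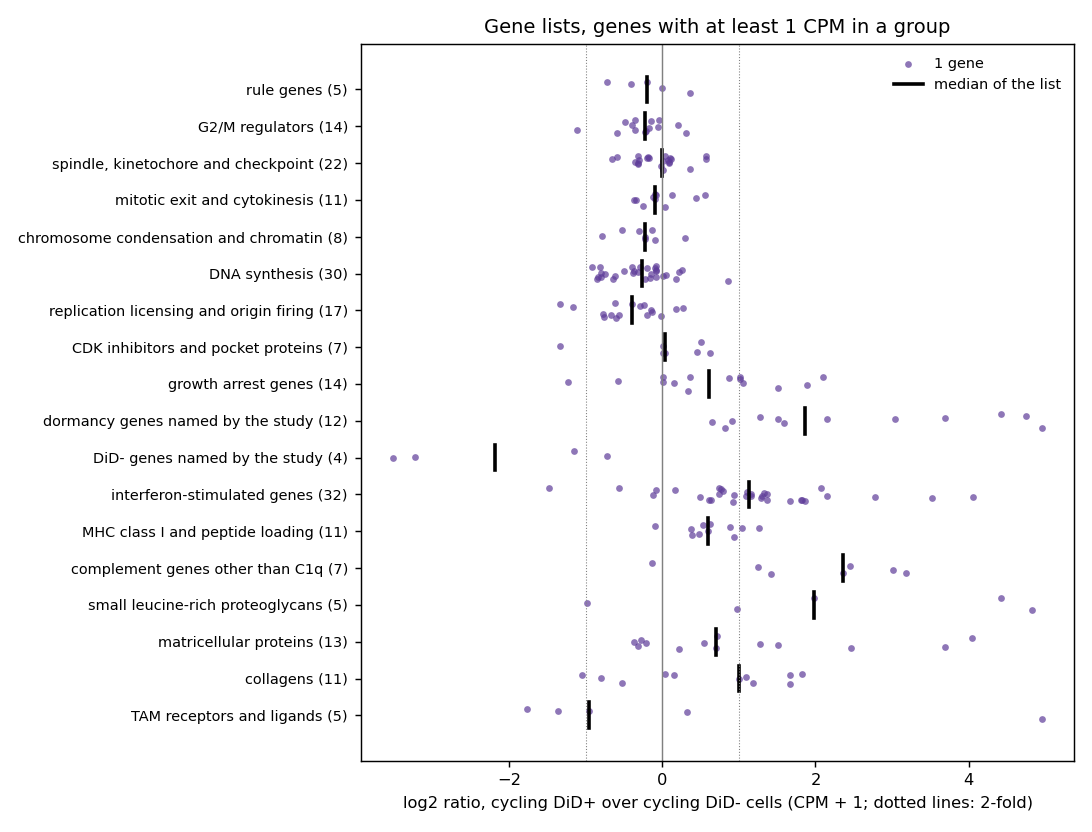
Log2 ratio of cycling DiD+ (19 cells) over cycling DiD- (25 cells) for each gene of the lists that reached 1 CPM in either group, with 1 point per gene, a bar at the list median, the number of genes in brackets and dotted lines at 2-fold. The 5 selecting genes are shown as rule genes. The mitotic and replication lists cluster around 0 with medians from -0.39 to -0.01, whereas the dormancy genes and the interferon-stimulated genes have medians of 1.87 and 1.13. The study chose the dormancy genes on these libraries.

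The 12 genes that the study named for dormant cells were all higher in the summed counts of cycling DiD+ cells (median log2 ratio 1.87). Of the 12, 9 were higher by 2-fold or more, against 10.5% of all genes. The study chose these genes on the same libraries, with most cycling DiD+ cells among its DiD+ cells, so their direction is not independent evidence. The median was 2.89 in other DiD+ over cycling DiD- cells, a ratio that shares its denominator with the first. It was 1.49 among cells with all 5 selecting genes, where 11 of 12 genes were higher and 8 by 2-fold or more. Without the 6 cells with macrophage or erythroid markers it was 2.03, with all 12 genes higher and 11 by 2-fold or more. Leaving out single cells gave medians from 1.51 (without DiD+ cell 82) to 2.38 (without DiD- cell 34). The higher levels came from a subset of cells, and most cycling DiD+ cells had 0 counts of 7 of the 12 genes.

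Gas6 and Aldh1a1 were absent from all cycling DiD- cells. Gas6 (chr8:13465374-13494490, minus strand), a ligand of the TAM receptor kinases, had at least 10 counts in 5 of 19 cycling DiD+ cells, with 370 CPM in cell 23, 135 in cell 24, 69.4 in cell 31, 41.1 in cell 38 and 32.1 in cell 82. All 25 cycling DiD- cells had 0 counts, which allows a share of up to 12% of cells with a count of the gene (3 of 25) and sets no limit on cells that express it below detection. Summed over cells Gas6 was at 30.1 CPM (Poisson 95% interval 28.9 to 31.2) in cycling DiD+ cells and at 28.8 CPM in other DiD+ cells. The level in cycling DiD+ cells was 1068-fold above that of 3 counts over the DiD- group. This fold covers counting error only. It is no lower limit on the difference, since up to 3 of 25 DiD- cells could hold the gene. Cell 23 gave 53.0% of the DiD+ counts, and 1 of the 5 cells held all 5 selecting genes. Aldh1a1 (chr19:20492715-20643465, plus strand), which makes retinoic acid from retinaldehyde, had at least 10 counts in 6 of 19 cycling DiD+ cells, with levels of 38.1 to 122 CPM, and 0 counts in all 25 cycling DiD- cells. Its summed level was 25.9 CPM (24.8 to 26.9) in cycling DiD+ cells and 47.7 CPM in other DiD+ cells. The first was 919-fold above the level of 3 counts over the DiD- group, which again is no lower limit on the difference. For both genes the cycling DiD+ cells that held them lay above every cycling DiD- cell, and the other cycling DiD+ cells had fewer than 10 counts.

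The secreted and matrix genes of the list followed in order of ratio. Ogn (chr13:49608046-49624501, plus strand), a small leucine-rich proteoglycan, had at least 10 counts in 7 cycling DiD+ cells and 2 cycling DiD- cells and was at 35.2 and 0.685 CPM in the sums (log2 ratio 4.43). Postn (chr3:54361109-54391037, plus strand), a matricellular protein, was at 133 and 9.37 CPM (3.69), but only 3 cycling DiD+ cells held it, cell 82 at 1198 CPM, cell 31 at 892 CPM and cell 38 at 89.7 CPM, and without cell 82 the ratio was 1.595. Thbs1, another matricellular protein that can activate latent TGF-beta, was at 50.8 and 17.2 CPM (1.51) and was present in 10 of 19 and 6 of 25 cells. Mgp (chr6:136872435-136875823, minus strand), an inhibitor of matrix calcification that binds BMPs, was the dormancy gene held by nearly every cell, 18 of 19 cycling DiD+ and 25 of 25 cycling DiD- cells. It was at 1.43, 390 and 1571 CPM in the lowest, median and highest cycling DiD+ cell, at 24.3, 173 and 898 CPM in cycling DiD- cells and at 204, 776 and 5151 CPM in other DiD+ cells. The groups overlapped, with 5 cycling DiD+ cells above every cycling DiD- cell. The summed levels of 536, 220 and 1630 CPM placed cycling DiD+ cells between the other classes, with a log2 ratio of 1.28 over cycling DiD- cells that lay between 1.11 and 1.40 with any single cell left out.

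Among the receptors, enzymes and transcription factors, Dhrs3 (chr4:144892827-144928209, plus strand), which reduces retinaldehyde, was at 15.7 and 1.04 CPM (3.03) and was present in 8 of 19 and 1 of 25 cells. The platelet-derived growth factor receptor Pdgfrb was at 53.4 and 17.1 CPM (1.59), present in 11 and 9 cells, and cell 31 gave 36% of its DiD+ counts, without which the ratio was 0.996. The membrane peptidase Mme was at 21.96 and 12 CPM (0.82, and 0.23 without cell 17), and among cells with all 5 selecting genes its ratio was -0.39. Irf7, the interferon regulatory factor that amplifies type I interferon, was at 42.4 and 8.78 CPM (2.15), present in 8 and 5 cells, and cell 22 gave 55.6% of the DiD+ counts, without which the ratio was 1.12. The orphan nuclear receptor Nr2f1 was at 17.3 and 8.73 CPM (0.91), present in 13 of 19 and 12 of 25 cells, and the repressor Bhlhe41 was at 1.74 and 0.751 CPM (0.64), present in 5 and 2 cells. Pdgfrb is also a mesenchymal stromal marker. The stromal markers were mostly higher too, with 8 of 10 measured genes higher (median log2 ratio 0.83). Of the 10, 4 were higher and 1 lower by 2-fold or more, against 10.5% and 6.24% of all genes. Dcn was at 2.99 and 0.00938 CPM, Col1a1 at 2.18 and 0 CPM, Lepr at 0 and 1.26 CPM and Lum at 0 in both groups. A cell held a median of 5 of 11 in both groups, and the summed level ran from 73.3 to 2851 CPM against 106 to 2790 CPM, with 460 to 11416 CPM in other DiD+ cells. The part of stromal RNA in the dormancy gene levels was not tested.

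**Figure D3:**
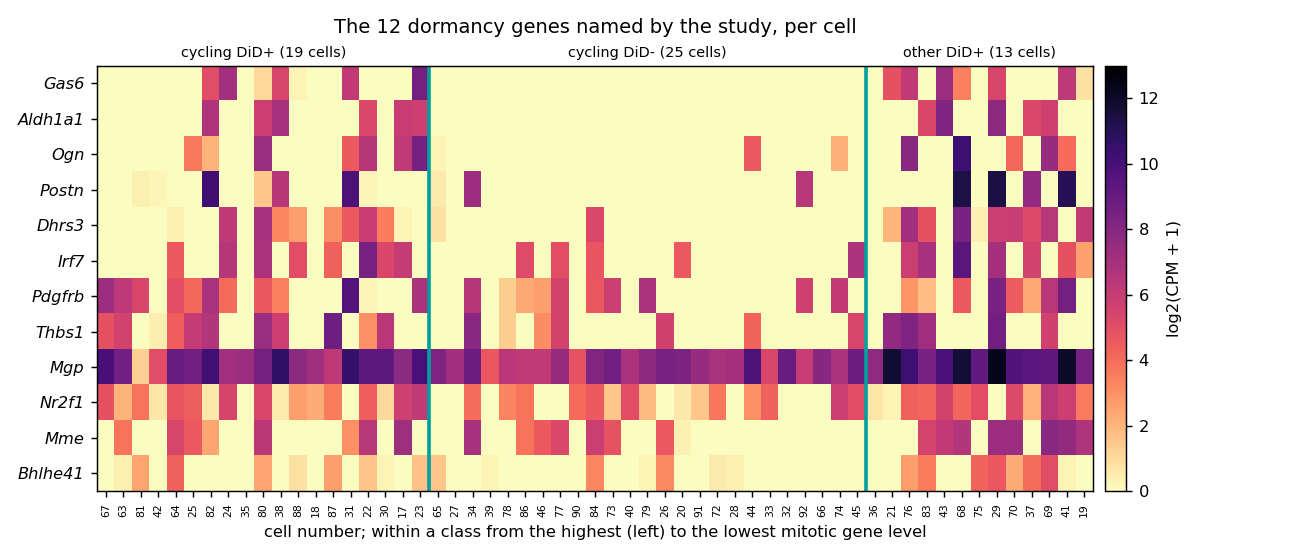
Level of the 12 study-named dormancy genes in each cycling DiD+ (19), cycling DiD- (25) and other DiD+ (13) cell, as log2(CPM + 1) in colour, with cells ordered within each class from the highest to the lowest summed level of mitotic genes. Gas6 and Aldh1a1 are blank in all cycling DiD- cells, Mgp is filled in nearly every cell, and the filled squares of the cycling DiD+ cells are spread over different cells for different genes.

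Counted per cell, cycling DiD+ cells carried more of the 12 dormancy genes than cycling DiD- cells. The study chose these genes on the same libraries, so this direction too is not independent evidence. A cycling DiD+ cell held a median of 6 at 10 counts or more (1 to 10), a cycling DiD- cell a median of 2 (1 to 7) and another DiD+ cell a median of 8 (1 to 10). At least 6 genes were held by 11 of 19 cycling DiD+ cells, 2 of 25 cycling DiD- cells and 8 of 13 other DiD+ cells. The medians of the cycling classes were also 6 and 2 after thinning every cell to 2200000 counts. Dormancy and mitotic genes occurred in the same cells. DiD+ cell 80, with all 5 selecting genes at a summed 1814 CPM, held 10 dormancy genes, the most of the cycling cells, and DiD+ cell 64, at 2588 CPM, held 7. DiD+ cells 63 and 67, the highest for the selecting genes at 5265 and 4840 CPM, held 5 and 4. DiD+ cells 35 and 42, at 2456 and 2200 CPM, held 1 each, which was Mgp, and cell 18 held 2. Among cells with all 5 selecting genes the medians were 5.5 and 2.5. Of the 10 such DiD+ cells, 7 held Pdgfrb, 7 Thbs1, 7 Nr2f1, 5 Mme, 2 Aldh1a1 and 1 Postn, and of the 16 such DiD- cells 7 held Pdgfrb, 4 Thbs1, 8 Nr2f1, 7 Mme, 0 Aldh1a1 and 1 Postn. Across the 19 cycling DiD+ cells the number of dormancy genes had a Spearman rho of -0.26 with the summed level of 47 mitotic genes, and across the 25 cycling DiD- cells the rho was 0.04. The cells of a class share the set of mice and the sort. Depth had a rho with the number of dormancy genes of -0.05 in cycling DiD+, -0.39 in cycling DiD- and -0.60 in other DiD+ cells.

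**Figure D4:**
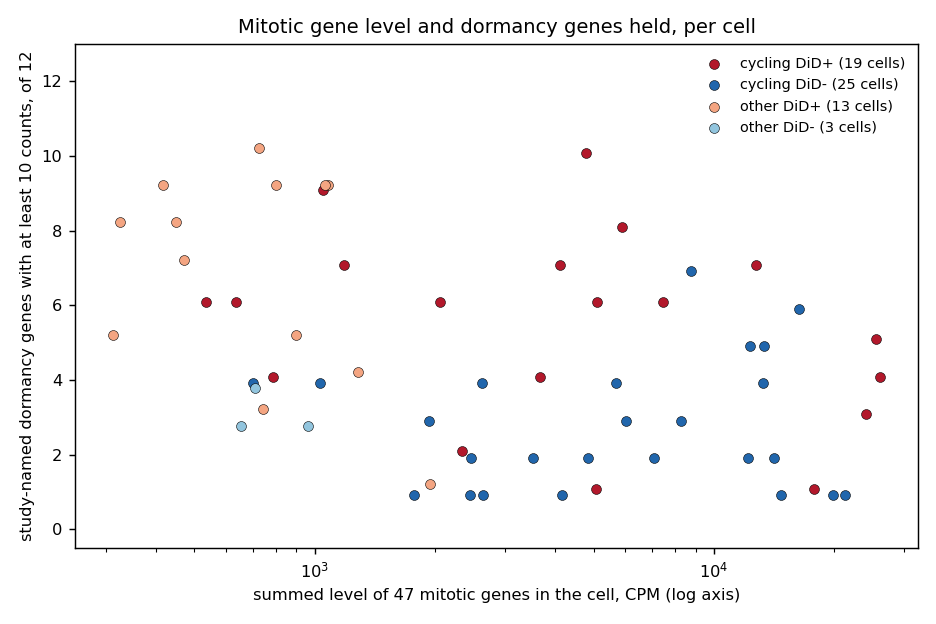
Number of the 12 study-named dormancy genes with at least 10 counts in a cell against the summed level of 47 mitotic genes (CPM, log axis), with 1 point per cell for all 60 cells and small vertical shifts between classes. Cycling DiD+ cells have a median of 6 dormancy genes and cycling DiD- cells a median of 2 over overlapping ranges of mitotic levels, and 11 of 19 and 2 of 25 cells hold at least 6. The study chose the genes on these libraries, so the direction is not independent evidence.

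Bcat1, Fgf13, Rgs4 and Kcnab2 were taken from the genes listed by the study as higher in DiD- cells, outside the cell cycle. They too were chosen on these libraries. All 4 were lower in cycling DiD+ cells (median -2.19, and -2.38 without the cells with macrophage or erythroid markers). Of the 4, 3 were lower by 2-fold or more, against 6.24% of all genes. Mcm3, which the study also named, is among the licensing genes above. Bcat1, which starts the breakdown of branched-chain amino acids, had at least 10 counts in 6 of 19 cycling DiD+ cells and 22 of 25 cycling DiD- cells. Its summed levels were 36.5 and 82.5 CPM (-1.15), and cell 18 gave 53.0% of the DiD+ counts. Rgs4, a regulator of G protein signalling, had 0 counts in all 19 cycling DiD+ cells. This allows a share of up to 15.8% of cells with a count (3 of 19). It had at least 10 counts in 6 cycling DiD- cells. Its 8.36 CPM there was 247-fold above the level of 3 counts over the DiD+ group. This fold covers counting error only and is no lower limit on the difference. Fgf13 was at 0.237 and 13.2 CPM (-3.52), present in 1 and 10 cells, and the potassium channel subunit Kcnab2 was at 11.8 and 20.1 CPM (-0.72), present in 6 and 18 cells. Rgs4 and Fgf13 also had 0 counts in all other DiD+ cells.

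Over genes outside the cell cycle lists, most cycling DiD+ cells were closer to cycling DiD- cells than to other DiD+ cells. Likeness was the Spearman rho of log2(CPM + 1) between a cell and the mean of a class, with the cell left out of its own class mean, over 9434 genes with at least 10 CPM in a class and without the cell cycle lists. Of the 19 cycling DiD+ cells 15 were closer to the mean of cycling DiD- cells and 4 to the mean of other DiD+ cells. All 25 cycling DiD- cells were closer to their own class, as were 12 of 13 other DiD+ cells, while 2 of the 3 other DiD- cells were closer to other DiD+ cells. The rho with the cycling DiD- mean minus that with the other DiD+ mean had a median of 0.049 in cycling DiD+ cells (-0.016 to 0.108), between 0.084 in cycling DiD- and -0.032 in other DiD+ cells. The 4 cells closer to the other DiD+ mean were cells 22 (-0.016), 17 (-0.014), 30 (-0.013) and 80 (-0.003), of which cells 22, 17 and 80 held 9, 6 and 10 dormancy genes. The largest positive differences were in cell 64 (0.108), with 7 dormancy genes, and cell 25 (0.092), with 6. Of the 16 cycling DiD+ cells left without those with macrophage or erythroid markers, 13 were closer to cycling DiD- cells. The class means were not recomputed for this count. They still held cycling DiD- cells 44, 84 and 86, and other DiD+ cells 19, 21 and 37 with 13 macrophage markers each. The part of host RNA in the likeness was not tested. The class means rest on 25 and 13 cells, a mean over more cells is less noisy, and genes are not independent replicates. Genes that vary with the cycle but are on none of the lists were kept, and their part was not tested.

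**Figure D5:**
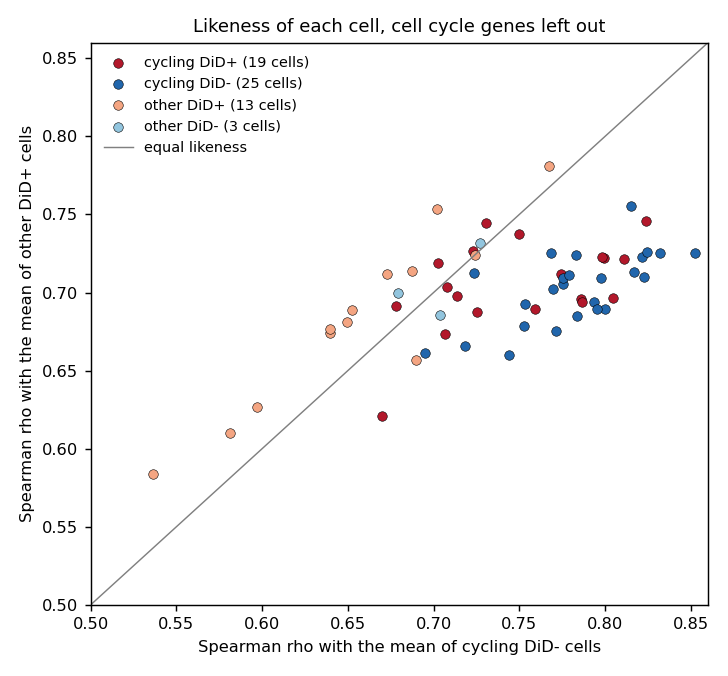
Spearman rho of each of the 60 cells with the mean of cycling DiD- cells (horizontal) and of other DiD+ cells (vertical) over 9434 genes outside the cell cycle lists, with 1 point per cell and a grey line at equal likeness. All 25 cycling DiD- cells and 15 of 19 cycling DiD+ cells lie below the line, and 12 of 13 other DiD+ cells lie above it.

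Genes induced by interferon were higher in cycling DiD+ cells (median log2 ratio 1.13). Of 32 measured genes 28 were higher, 18 of them by 2-fold or more, and 1 was 2-fold or more lower. The shares of all genes were 10.5% and 6.24%. Irf7 is on this list as well as on the dormancy list. Without the cells with macrophage or erythroid markers 26 of the same 32 genes were higher and 15 by 2-fold or more (median 0.81), and among cells with all 5 selecting genes 20 were higher, 9 lower and 8 by 2-fold or more higher (median 0.30). Ifit3 and Ifit1, which encode antiviral proteins, had the highest ratios. Their upstream 200 bases are printed because both genes were nearly absent from cycling DiD- cells, at chr19:34583329-34583528 (plus strand) for Ifit3 and chr19:34640689-34640888 (plus) for Ifit1, with capitals on an interferon-stimulated response element, read as GAAA, any 2 bases and GAAA again, or as TTTC, any 2 bases and TTTC.
Ifit3: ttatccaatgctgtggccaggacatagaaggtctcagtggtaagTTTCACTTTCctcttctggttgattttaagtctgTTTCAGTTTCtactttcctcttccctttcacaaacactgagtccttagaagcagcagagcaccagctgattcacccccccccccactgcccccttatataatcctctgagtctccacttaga
Ifit1: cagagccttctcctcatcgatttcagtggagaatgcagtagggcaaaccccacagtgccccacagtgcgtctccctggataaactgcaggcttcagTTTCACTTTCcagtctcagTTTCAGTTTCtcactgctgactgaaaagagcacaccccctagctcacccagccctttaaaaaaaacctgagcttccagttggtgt
These letters on either strand were in 12 of 28 windows of interferon-stimulated genes with a RefSeq match, in 2 of 16 windows of dormancy genes and in 2.27% of all windows. Ifit3 was at 118.6 CPM in cell 22, 98.3 in cell 80, 58.05 in cell 24 and 12.3 in cell 88, and at 0 in the other 15 cycling DiD+ cells. Ifit1 was at 105 CPM in cell 80, 57.1 in cell 30, 45.4 in cell 17 and 8.43 in cell 38. Cells 24, 88 and 30 were among those with macrophage markers. In cycling DiD- cells Ifit3 had a highest cell of 0.235 CPM and Ifit1 of 0.470 CPM, and the summed log2 ratios were 4.06 and 3.52. The Ifit genes are close paralogs, and the estimated counts may divide reads between them. Ifit2 at 10.7 and 16.4 CPM (-0.57) and the GTPase gene Ifi47 at 39.5 and 42.9 CPM (-0.12) were not higher.

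Interferon genes and dormancy genes tended to be high in the same cycling DiD+ cells. The summed level of the interferon list had a Spearman rho of 0.70 with the number of dormancy genes across the 19 cycling DiD+ cells. Across the 25 cycling DiD- cells it was 0.10. Both lists hold Irf7. With Irf7 left out of both lists the rho was 0.64 in cycling DiD+ cells, 0.045 in cycling DiD- cells and 0.06 in the 13 other DiD+ cells. Among cells with all 5 selecting genes, and with Irf7 kept in both lists, it was 0.88 over 10 DiD+ cells and -0.08 over 16 DiD- cells. With the mitotic genes the interferon list had a rho of -0.56 in cycling DiD+ cells and of -0.11 in cycling DiD- cells. Depth had a rho of 0.20 with the interferon list in cycling DiD+ cells. The cells with the highest interferon levels were cell 22 at 3181 CPM, cell 80 at 2665 CPM and cell 17 at 2000 CPM. They held 9, 10 and 6 dormancy genes and at most 1 macrophage marker. Next were cells 24 at 1559 CPM and 30 at 1135 CPM, with 13 and 11 macrophage markers and 6 and 4 dormancy genes. Cells 31 and 64 held 7 dormancy genes each at 605 and 637 CPM. The rho without the cells with macrophage or erythroid markers was not computed, and the part of host RNA in it was not tested. The lowest were cells 42, 63 and 18 at 267, 300 and 321 CPM. MHC class I and peptide loading genes, which interferon also induces, had a median log2 ratio of 0.59 with 10 of 11 genes higher. Against 10.5% of all genes, 2 of the 11 were higher by 2-fold or more. These were the peptide transporter gene Tap2 at 72.2 and 29.4 CPM (1.27) and the immunoproteasome subunit gene Psmb8 at 155 and 74.7 CPM (1.04). H2-D1, a class I heavy chain with close paralogs, was at 2091 and 1612 CPM (0.37), and the trimming peptidase Erap1 at 74.4 and 79.6 CPM (-0.10).

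Several matrix genes with high ratios were carried by few cells. Of 5 measured small leucine-rich proteoglycans 4 were higher in cycling DiD+ cells (median 1.98, and 1.17 without cell 80). Prelp was at 27.7 CPM in cycling DiD+ cells and had 1 count in all cycling DiD- cells together, and 6 of 19 and 0 of 25 cells had at least 10 counts, with 221 CPM in cell 38, 208 in cell 23, 52.4 in cell 80, 40.8 in cell 22, 37.1 in cell 81 and 12.6 in cell 67. Dcn (2.99 and 0.00938 CPM) and Omd (2.21 and 0.638 CPM) were each present in 2 cycling DiD+ cells, and Bgn was at 9.23 and 19.2 CPM (-0.98). Matricellular proteins had a median of 0.71 with 9 of 13 higher. Against 10.5% of all genes, 5 of the 13 were higher by 2-fold or more, 3 of which (Mgp, Postn and Thbs1) are dormancy genes. Among cells with all 5 selecting genes the median of matricellular proteins was -0.56. Ccn5, a growth-restraining CCN protein, was at 76.5 and 3.71 CPM (4.04), with 92.5% of the DiD+ counts from cell 31 and a ratio of 0.54 without it. Ccn2 was at 124 and 160 CPM (-0.37) and Fbln1 at 16.2 and 20.4 CPM (-0.31). Collagens had a median of 1.00 with 8 of 11 higher, and of -0.14 without cell 31. Their summed level per cell went the other way, with medians of 862 CPM in cycling DiD+ and 1554 CPM in cycling DiD- cells. Without the cells with macrophage or erythroid markers the median log2 ratios were 2.19 for proteoglycans, 0.72 for matricellular proteins and 1.22 for collagens. Col6a3 was at 14.01 and 3.25 CPM (1.82, and -0.57 without cell 31) and Col12a1 at 11.3 and 2.89 CPM (1.67, and 0.33 without cell 82), while the basement membrane genes Col4a2 at 14.9 and 32.0 CPM (-1.05) and Col18a1 at 735 and 1275 CPM (-0.79) were lower. Complement genes other than C1q had a median of 2.35 with 6 of 7 higher, and without the cells with macrophage or erythroid markers the same 7 genes had a median of 0.00, with 2 higher and 3 lower. Cell 24, with 13 macrophage markers, gave 75.6% of the DiD+ counts of Cfp, 97.2% of C3ar1, 99.8% of C5ar1 and 100% of Cd55, and cell 30 gave 100% of those of Cd59a. C1ra, a protease of the classical pathway, was at 63.1 and 22.9 CPM (1.42, 1.53 without those cells and 0.45 among cells with all 5 selecting genes), and clusterin (Clu) was at 982 and 1081 CPM (-0.14).

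The TAM receptors did not share the direction of their ligand Gas6. Axl was at 76.3, 385 and 682 CPM in the lowest, median and highest cycling DiD+ cell, at 131, 719 and 1585 CPM in cycling DiD- cells and at 27.7, 441 and 1287 CPM in other DiD+ cells. Every cycling cell held at least 10 counts, and 13 of 25 cycling DiD- cells were above every cycling DiD+ cell. Over summed counts Axl was at 377 and 729 CPM (-0.95), and the ratio lay between -1.01 and -0.87 with any single cell left out. Tyro3 was at 3.54 and 14.5 CPM (-1.77), present in 4 and 7 cells, and Mertk at 0.879 and 3.84 CPM (-1.36), present in 1 and 3 cells. The other TAM ligand, Pros1, was at 212 and 169 CPM (0.33). TGF-beta and BMP genes had a median of 0.32 with 11 of 16 higher, among them Bmp2 at 12.9 and 3.12 CPM (1.75, and 0.07 without cell 82) and Id2, a BMP target that blocks helix-loop-helix factors, at 105 and 44.7 CPM (1.22), while Ltbp1 was at 536 and 761 CPM (-0.51) and Tgfb1 at 17.2 and 22.4 CPM (-0.36).

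Genes linked to growth arrest were mostly higher, 12 of 14 of them (median 0.61). By 2-fold or more 6 of the 14 were higher, against 10.5% of all genes. Per cell their summed level had medians of 1208 CPM in cycling DiD+ and 1111 CPM in cycling DiD- cells. The medians were 2648 CPM in other DiD+ and 2431 CPM in other DiD- cells. Sesn1, a stress-induced inhibitor of mTORC1 signalling, was at 0, 39.5 and 1171 CPM in the lowest, median and highest cycling DiD+ cell and at 0, 17.9 and 311 CPM in cycling DiD- cells, with 4 DiD+ cells above every DiD- cell. Its summed levels were 201 and 46.4 CPM (2.09), with 226 CPM in other DiD+ cells and 218 CPM in the 3 other DiD- cells. Gas1, a membrane protein of arrested cells, was at 12.2 and 2.58 CPM (1.88, and 0.72 without cell 80), while the atypical cyclin Ccng2 was at 14.96 and 36.4 CPM (-1.23) and Foxo3 at 8.66 and 13.4 CPM (-0.58). ERK targets had a median of -0.19, with the ERK feedback inhibitors Spry2 at 11.5 and 4.97 CPM (1.07) and Spry4 at 17.2 and 8.19 CPM (0.99) higher, the phosphatase Dusp4 at 8.59 and 18.1 CPM (-0.99) and Phlda1 at 82.3 and 119 CPM (-0.52) lower. Myc and ribosome biogenesis genes had a median of -0.11 with 7 of 14 higher, among them Myc at 106 and 71.3 CPM (0.57) and the pyrimidine synthesis enzyme Cad at 60.4 and 47.1 CPM (0.35), against the nucleolar genes Nolc1 at 90.6 and 145 CPM (-0.67) and Fbl at 92.8 and 134 CPM (-0.52). The keratins of simple epithelium were lower in cycling DiD+ cells, with Krt8 at 2164 and 3423 CPM (-0.66) and Krt18 at 846 and 1588 CPM (-0.91), and other DiD+ cells had 1317 and 546 CPM. Vim was at 4287 and 4156 CPM (0.04) and Cdh2 at 75.2 and 121 CPM (-0.68). Without the cells with macrophage or erythroid markers the median was 0.71 for growth arrest genes, 0.06 for ERK targets, -0.23 for Myc and ribosome biogenesis genes and -0.74 for the keratin, cadherin and vimentin genes. Over the same 16 DiD+ and 22 DiD- cells it was -1.04 for TAM receptors and ligands, 0.47 for TGF-beta and BMP genes, 0.59 for MHC class I genes, 0.32 for CDK inhibitors and pocket proteins and -0.18 for the G1 machinery. It was 0.02 for mitotic exit and -0.06 for chromosome condensation.

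Beyond the lists, the 10 highest and 10 lowest ratios were taken from 7532 genes that reached 10 CPM in either group and had 10 counts or more in 50% or more of the cells on the higher side. They were picked for their size, so the sizes are a description, and the cells of the groups overlapped for all 20. The highest were Aak1, a kinase of clathrin adaptors, at 20.4 and 2.20 CPM (2.74), the aldehyde dehydrogenase Aldh3a1 at 42.1 and 5.98 CPM (2.63), the homeodomain-only protein Hopx at 19.96 and 2.79 CPM (2.47), the transcription factor Cebpd at 41.4 and 7.28 CPM (2.36, 1.75 without cell 17 and 3.26 without cell 26) and Bcl2l11, which encodes the pro-apoptotic protein BIM, at 14.8 and 2.36 CPM (2.23). Aak1 and Bcl2l11 had at least 10 counts in 14 of 19 cycling DiD+ cells each and in 4 and 6 of 25 cycling DiD- cells. Aldh3a1, like Aldh1a1 an aldehyde dehydrogenase, had at least 10 counts in 12 of 19 and 4 of 25 cells, and its level in other DiD+ cells was 42.5 CPM. Tprn, Gmeb2, Sesn1, Usp2 and 9930021J03Rik followed with ratios from 2.22 to 2.01 (3.31 for 9930021J03Rik without cell 39), and Tprn was at 24.7 CPM in cycling DiD+ but at 2.70 CPM in other DiD+ cells. The lowest ratio was that of the neurofilament gene Nefl at 5.29 and 56.8 CPM (-3.20), present in 5 of 19 and 15 of 25 cells and at 0 in other DiD+ cells. The adhesion receptor gene Adgra1 was at 2.04 and 21.9 CPM (-2.91), Gtf3c1, a subunit of the RNA polymerase III factor TFIIIC, at 4.39 and 37.9 CPM (-2.85) and Mccc2, an enzyme of leucine breakdown, at 4.23 and 25.02 CPM (-2.32, and -3.56 without cell 88). Pthlh, which encodes the bone-resorbing hormone PTHrP, was at 16.1 and 82.3 CPM (-2.28), present in 8 of 19 and 20 of 25 cells, with 13.7 CPM in other DiD+ cells. The anchoring filament gene Lad1 was at 9.97 and 52.3 CPM (-2.28), present in 4 and 16 cells, and Fpgs, Dnajc13, Nfxl1 and Smarcal1 had ratios from -1.99 to -1.92.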

How the data were processed

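Single PyMT-Bo1 cells sorted as DiD+ (32) or DiD- (28) from bones of 5 mice were the samples. Reads were aligned with STAR to GRCm38/mm10 with spike-ins and transgenes added and quantified with RSEM, per the authors. The authors deposited RSEM estimated counts per gene and cell, not normalized, for 47729 mouse genes, 92 spike-ins and 4 transgenes, and 96.6% of the values were whole. The authors also deposited a signal table normalized with BASiCS, used here only as an alternative scaling.

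Estimated counts were rounded. Counts on mouse genes were summed over the cells of a class and divided by the class total (88709068 for cycling DiD+ and 106576758 for cycling DiD- cells) to give CPM, with a floor of 3 counts (0.0338 and 0.0281 CPM). Ratios are log2 with a pseudocount of 1 CPM, which understates the ratio of low genes. Each group is 1 sample, so no p-value or standard error was computed and the authors' BASiCS test was not repeated. Intervals are exact Poisson and exact binomial (Clopper-Pearson) at 95%. Lists are summarised over members that reached 1 CPM in either group. A gene or marker was present in a cell at 10 counts. No doublet caller was run on sorted single cells.

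The members and the gene lists were chosen with earlier results of these data known. The genes named are the selecting genes, genes the study named for DiD+ cells (1 is not reported here), 4 it gave as higher in DiD- cells, the 2 highest and 2 lowest ratios of a list among members that reached 10 CPM in either group, more for small lists and markers, and the 10 highest and 10 lowest over all genes. Col1a1 and Lepr were named after their values were seen. Gene positions follow GENCODE on GRCm38, and promoter sequences are from RefSeq (GRCm38.p6).

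Scaling factors came from edgeR 4.0.16 and DESeq2 1.42.0 under R 4.3.3, which ran no test. All else was computed in Python 3.11.15 (scipy 1.17.1, pandas 2.3.3, numpy 2.4.6) and drawn in matplotlib 3.10.9. The calculation of ratios was also run on simulated counts drawn with the same proportions for every cell of a group. Such counts have no spread between cells, so the run checks the arithmetic only.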

Additional observations from a re-analysis of the deposited data

How the results depend on the processing

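A ratio or median was taken to move when it changed by over 1.5-fold. Requiring all 5 selecting genes left 10 DiD+ and 16 DiD- cells. With the median over cells in place of summed counts, the dormancy list was at 0.00, the interferon list at 0.00 and the spindle list at -1.33. A pseudocount of 10 CPM gave 1.24 for the dormancy list. At 1 and at 100 counts a cycling DiD- cell held a median of 4 and of 1 dormancy genes. With all 5 selecting genes required the complement list was at -1.53 over the members that then reached 1 CPM, Cfp at -2.78, C3ar1 at -2.19, Ccn5 at -2.07 and Col6a3 at -0.20, and with 100 counts required Ccn5 was at -1.77 and Col6a3 at -0.19. Without the cells with macrophage or erythroid markers the complement list was likewise at -0.35 (0.00 over the same 7 genes in both cases), Cfp at -0.012 and C3ar1 at -1.53. With single cells left out the dormancy list ranged from 1.51 to 2.38, the interferon list from 0.88 to 1.23, the licensing list from -0.72 to -0.29 and the spindle list from -0.26 to 0.09, while C3ar1 ranged from -1.46 to 2.54 and Col6a3 ranged from -0.57 to 2.93. The cause of these changes was not tested.

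Scaling to spike-ins moved the median of all genes from 0.03 to -0.26, with the dormancy list at 1.58, the interferon list at 0.90 and the licensing list at -0.70. With scaling factors of edgeR and DESeq2 the dormancy list was at 1.85 and 1.84. Over all lists and the alternatives that keep every cell or drop a class of cells, 312 medians stayed within 1.5-fold and 31 moved further. Another 2, both of the complement list, were past 2-fold at first and took the other sign. Smaller medians that changed sign, such as that of the licensing list with all 5 selecting genes, are counted by the size of the change only. Leaving out the 2 cycling DiD+ cells with fewer than 50 Luc2 counts, chosen after seeing the data, gave 1.998 for the dormancy list and 1.06 for the interferon list. No paired analysis was possible because the labels pair no cells. Differences near the floor cannot be resolved at this depth.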
